A study of Mus musculus with 15 samples.

Results

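The genes of the adenosine system examined here were 7 of the 26628 genes in the expression table. They were found by symbol and were the receptors Adora1, Adora2a and Adora2b, the ecto-5'-nucleotidase Nt5e (CD73), the adenosine kinase Adk, the adenosine deaminase Ada and the equilibrative nucleoside transporter Slc29a1 (ENT1). RNA was sequenced from the whole cerebellum (Ce) and the whole striatum (St) of male Hsd:ICR mice, from a line bred for much voluntary running on a wheel (Hi) and an unselected control line (Co). There were 4 samples each of CeCo, CeHi and StCo and 3 of StHi, 15 in all. All mice, controls included, had access to a running wheel and were sampled on day 7 of that access, at 6 weeks of age by the labels and 7 weeks by the methods of the study. Each kind of line was represented by 1 line (line 7 of the selected lines, line 1 of the controls) at generation 66, so an effect of selection and a difference between lines that arose by drift cannot be told apart. The paper reports that the selected mice ran more and faster than the controls before sampling. An effect of that running also cannot be told apart from a difference between the lines. Replicates of a group were separate mice. The labels do not say whether Ce and St samples came from the same mice.

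Adenosine is a nucleoside that signals how much ATP a tissue spends and that damps transmission in many brain circuits. Outside the cell it is made from released ATP by ectonucleotidases, the last step by Nt5e. It crosses membranes through transporters such as Slc29a1, and inside the cell it is returned to AMP by Adk or turned into inosine by Ada. The product of Adora1 couples to inhibitory G proteins and is widespread in the brain. The product of Adora2a couples to stimulatory G proteins and, in the striatum, is concentrated on the projection neurons of the indirect pathway, which also carry the dopamine D2 receptor and enkephalin. The product of Adora2b also stimulates adenylyl cyclase, has the lower affinity for adenosine, and is found on several brain cell types at low levels. Caffeine acts as an antagonist of these receptors.

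The start regions of Adora2b and Nt5e are shown because these were the 2 members whose Hi and Co samples did not overlap in the striatum. Of all genes tested, 13.1% did not overlap there, and Nt5e did not pass the threshold used below (limma FDR-adjusted P-value 0.089). Each sequence runs from 250 bases before to 50 bases after the RefSeq transcript start (GRCm38.p6), 5′ to 3′ on the plus strand. The Adora2b window lies at chr11:62248734-62249033 and the Nt5e window at chr9:88327359-88327658. Capitals mark the letters GGGCGG and CCAAT, read on both strands (CCGCCC and ATTGG on the other strand), and neighbouring matches may join into a longer run.
Adora2b: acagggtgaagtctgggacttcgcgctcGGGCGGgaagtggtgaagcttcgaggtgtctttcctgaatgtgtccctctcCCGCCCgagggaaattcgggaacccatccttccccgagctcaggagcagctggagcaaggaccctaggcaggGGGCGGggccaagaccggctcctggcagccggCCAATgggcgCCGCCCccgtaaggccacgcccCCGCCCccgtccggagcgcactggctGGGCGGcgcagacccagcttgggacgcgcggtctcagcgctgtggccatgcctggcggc
Nt5e: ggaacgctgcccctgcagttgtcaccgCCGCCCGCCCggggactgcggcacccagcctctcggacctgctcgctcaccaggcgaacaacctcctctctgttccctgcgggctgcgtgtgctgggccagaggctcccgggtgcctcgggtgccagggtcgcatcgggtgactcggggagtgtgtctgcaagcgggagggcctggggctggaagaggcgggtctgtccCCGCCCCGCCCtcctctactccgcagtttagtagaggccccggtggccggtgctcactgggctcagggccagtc
The Adora2b window was 70% G and C and held 6 GGGCGG and 1 CCAAT. The Nt5e window was 71% G and C and held 4 GGGCGG and no CCAAT. Of 32851 RefSeq windows of the same length, 35.7% held GGGCGG and 37.4% held CCAAT, and the median G and C content was 52.7%. TATAAA (in 13.6% of all windows), TGACGTCA (1.79%) and CACGTG (7.15%) had no match in either window. Of the 7 genes, 6 had an entry among these windows. These are matches of letters and not sites of a factor, and no measurement of binding was made.

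Values are normalized counts, that is, fragments per gene divided by a factor for the depth of the sample, and levels are also given as counts per 1000000 (CPM) per kilobase of annotated exon, the scale on which levels of different genes are compared. The samples held 32909383 to 47485535 fragments. Line differences are Hi minus Co on the log2(value + 1) scale from limma, with standard errors (SE) and FDR-adjusted P-values over 15213 genes, of which 6 were members; Ada lay below the filter of at least 1 CPM in 3 samples. A gene was called at an FDR-adjusted P-value under 0.05. In the cerebellum 5.94% of all genes were called between the lines and in the striatum 2.66%. Samples matched their labelled region: all 14 tested markers of striatal projection neurons were higher in the striatum and all 12 cerebellar markers were lower, in either line.

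Of the 6 members tested, 1 was called between the lines in each region, and it was the same gene, Adora2b, which was lower in the selected line. The other 5 were not called in either region. Among all genes tested, 0.638% were called lower in Hi in both regions. The median line difference of the 6 members was -0.02 log2 in the cerebellum and 0.09 in the striatum, beside medians of 0.00 over all genes tested in both.

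**Figure D1:**
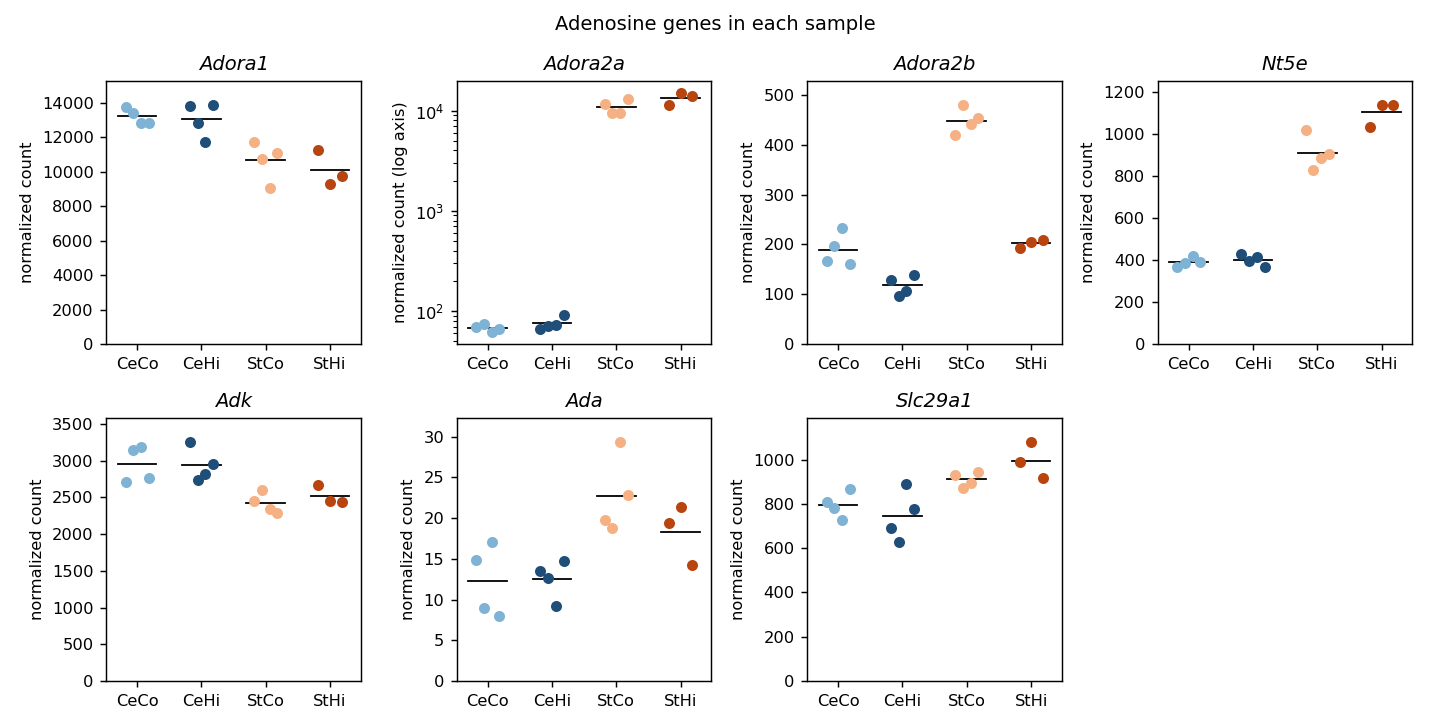
Normalized counts of the 7 adenosine genes in every sample (points) with group means (lines), on linear axes from 0 except for Adora2a, which has a log axis. Adora2b lay lower in CeHi than in CeCo and in StHi than in StCo, with 192 to 209 in StHi against 419.7 to 479.7 in StCo.

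Adora2b (chr11:62248984-62266453, plus strand, GRCm38) had 167, 197, 232 and 161 normalized counts in the 4 CeCo samples and 129, 96.0, 107 and 139 in the 4 CeHi samples. In the striatum it had 419.7, 479.7, 441 and 453 in the 4 StCo samples and 192, 206 and 209 in the 3 StHi samples. Every sample of the selected line lay below every sample of the control line in the same region, and the StHi samples lay at the level of the CeCo samples. Groups did not overlap for 13.6% of all genes in the cerebellum and for 13.1% in the striatum. The means were 189 ± 32.6 (SD, n = 4) in CeCo against 118 ± 20.1 (n = 4) in CeHi, and 448 ± 25.1 (n = 4) in StCo against 202 ± 9.06 (n = 3) in StHi.

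The line difference of Adora2b was -0.68 log2 in the cerebellum (SE 0.13, limma FDR-adjusted P-value 0.0035), a level 1.61-fold lower in Hi with a 95% interval of 1.33 to 1.95. In the striatum it was -1.15 log2 (SE 0.14, limma FDR-adjusted P-value 8.5e-05), 2.22-fold lower with an interval of 1.81 to 2.73. Leaving out each of the 15 samples in turn gave -0.77 to -0.58 in the cerebellum and -1.18 to -1.11 in the striatum, with the call kept in each of these fits. The difference in the striatum minus that in the cerebellum was -0.47 log2 (SE 0.19), with an unadjusted limma P-value of 0.027 and an FDR-adjusted P-value of 0.418, so a larger decrease in the striatum was not called; 0.532% of all genes were called in this interaction. None of the 6 members was called in the interaction by limma, edgeR or DESeq2, and 2 (Adora2b and Nt5e) had an unadjusted limma P-value under 0.05. In whole tissue, fewer cells of a type and less RNA per cell cannot be told apart.

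The levels of cell type markers in the 2 lines are given beside this result. The summed level of 8 oligodendrocyte markers was 204534 to 294895 in StCo and 312880 to 354424 in StHi, without overlap; none of the 8 was called, 6 had an unadjusted limma P-value under 0.05, and their median difference was 0.38 log2. In the cerebellum that sum was 187359 to 230731 in CeCo and 212791 to 272285 in CeHi. The 8 microglial markers summed to 18959 to 20578 in StCo and 18968 to 19982 in StHi, and 1 of them, the complement gene C1qb, was called higher in Hi in each region. None of the 8 was called lower, and their median difference was 0.07 log2 in the cerebellum and -0.02 in the striatum. P2ry12, from the same list, stood lower in StHi (2073 to 2457) than in StCo (2555 to 3313). The 10 astrocyte markers summed to 209146 to 243271 in StCo and 210075 to 234274 in StHi, and the 8 endothelial markers to 8011 to 9896 and 8146 to 10285; none of either list was called between the lines. The 3 measured red blood cell markers summed to 553 to 940 in StCo and 1058 to 1175 in StHi. The 8 choroid plexus markers ranged from 1179 to 117641 among the cerebellar samples, and from 1270 to 1800 in StCo and 1791 to 18199 in StHi, with none called. The 12 cerebellar markers summed to 47168 to 67107 in StCo and 59079 to 63335 in StHi, and 2 of them, Cbln1 and En2, were called higher in StHi. The 7 markers of meningeal and perivascular fibroblasts had a median line difference of -0.28 log2 in the cerebellum and -0.29 in the striatum. They summed to 7322 to 13715 in CeCo and 6533 to 9289 in CeHi, and to 1766 to 2755 in StCo and 1807 to 2364 in StHi, with overlap in both regions; none was called, and 2 in the cerebellum and 1 in the striatum had an unadjusted limma P-value under 0.05. No marker of these lists was at 0 in all samples of a group. The part of these markers in the lower Adora2b level was not tested.

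**Figure D2:**
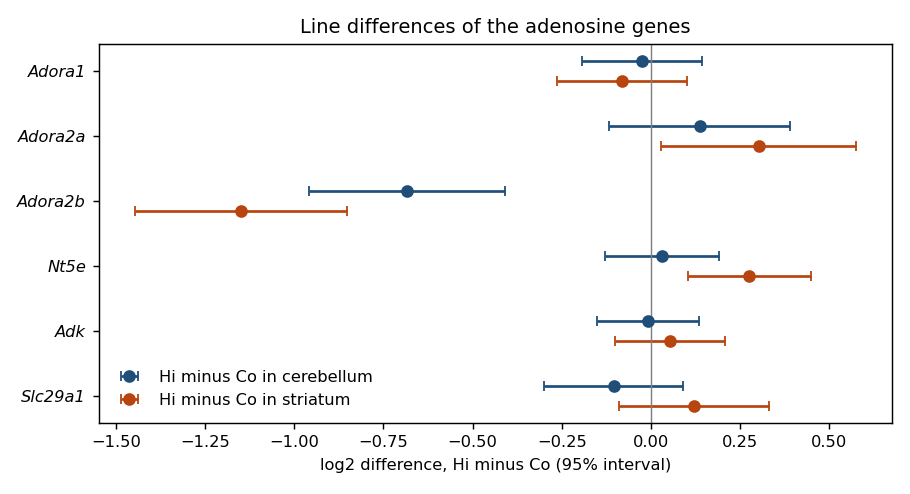
Log2 differences between the selected and control lines for the 6 tested members, with 95% limma intervals, in cerebellum (blue) and striatum (orange). Adora2b lay at -0.68 and -1.15, and the intervals of Nt5e and Adora2a in the striatum also lay above 0 although neither passed the threshold after adjustment.

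Genes near Adora2b on chromosome 11 were also examined. Over all genes tested, 5.94% were called between the lines in the cerebellum and 2.66% in the striatum. Within 1000 kb on each side 27 other genes were tested, of which 7 were called between the lines in the cerebellum (5 higher and 2 lower in Hi) and 2 in the striatum. Those called in both regions were Trpv2, a cation channel, which was higher (0.64 log2, SE 0.09, and 0.39 log2, SE 0.10), and B9d1, a ciliary transition zone gene, which was lower (-0.64, SE 0.11, and -0.61, SE 0.12). The 2 tested genes next to Adora2b were Specc1 and Zswim7. Specc1 differed by 0.36 log2 in the cerebellum (SE 0.09, limma FDR-adjusted P-value 0.026) and by 0.28 in the striatum (SE 0.10, adjusted P-value 0.155). Zswim7 differed by 0.02 and -0.11 log2 (SE 0.12 and 0.13) and was not called. Around the other 6 members, 0 to 3 of 10 to 29 tested neighbours were called in a region. The neighbours were named after their values were seen.

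**Figure D3:**
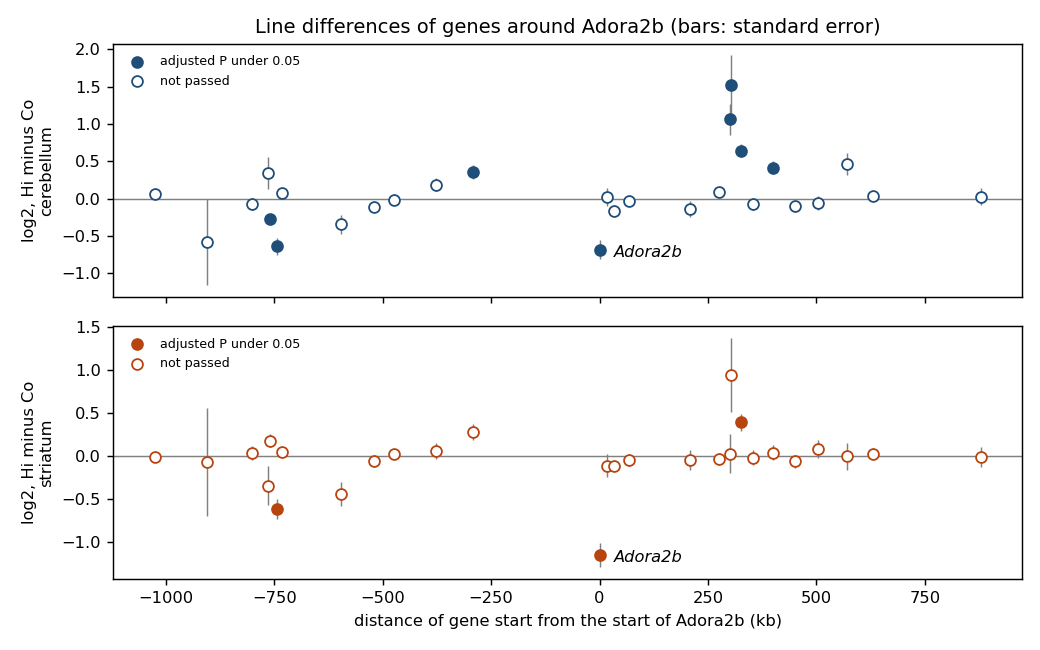
Line differences (log2, Hi minus Co, with SE) of Adora2b and the 27 tested genes within 1000 kb of it, against the distance between gene starts in kb, for cerebellum (top) and striatum (bottom). Filled points passed the threshold: Adora2b and 7 neighbours in the cerebellum, Adora2b and 2 neighbours in the striatum.

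The genes most like Adora2b over the 15 samples, by Pearson's r of log2 values, were Fstl1, a secreted glycoprotein (0.97), Ogg1, a DNA repair glycosylase (0.95), and Rapgefl1 (0.94). These 3 were called lower in Hi in both regions. This follows in part from the choice, since r was taken over values that hold the line and region differences. Fstl1 differed by -0.52 log2 in the cerebellum and -0.65 in the striatum (limma FDR-adjusted P-values 0.0014 and 0.00066). Ogg1 differed by -0.55 and -0.78 (adjusted P-values 0.0099 and 0.0021), and Rapgefl1 by -0.93 and -0.66 (adjusted P-values 3.3e-08 and 9e-06). By deviations from the 4 group means the genes most like it were Hmgcs1 (0.94), Sstr5 (0.92) and Prdx1 (0.92). These correlations are descriptions over samples that share region, line and depth.

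Adora2a (chr10:75316877-75334784, plus strand) was the member with the largest contrast between regions. It had 69.9, 74.9, 61.4 and 66.8 normalized counts in CeCo and 66.4, 71.7, 73.2 and 91.9 in CeHi. In the striatum it had 11574, 9496, 9480 and 13101 in StCo and 11425, 14977 and 13979 in StHi. The striatum exceeded the cerebellum by 7.29 log2 in the control line (SE 0.12) and by 7.46 in the selected line (SE 0.13), that is 157-fold and 176-fold. Among all genes, 74.7% were called between regions in the control line and 70.5% in the selected line, so a call alone sets no member apart. With all St samples averaged, the cerebellar samples held 0.512 to 0.766% of the striatal level of Adora2a. The highest, CeHi replicate 3, also held 2.41% of the striatal level of Drd2 against 0.415 to 0.745% in the other cerebellar samples, and the part of striatal RNA in the cerebellar Adora2a counts was not tested.

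Between the lines Adora2a differed by 0.30 log2 in the striatum (SE 0.13, unadjusted limma P-value 0.033, FDR-adjusted P-value 0.292) and by 0.14 in the cerebellum (SE 0.12, adjusted P-value 0.581), and was called in neither. The striatal value had a 95% interval of 1.02-fold to 1.49-fold. StHi replicates 1 and 2 lay above all 4 StCo samples, while StHi replicate 0 lay among them. Without CeHi replicate 3 the cerebellar difference was 0.04. The 14 striatal markers summed to 26995 to 27550 in CeCo and 28844 to 32221 in CeHi, without overlap. Of these, 2 (Scn4b and Tmem158) were called higher in CeHi and none lower, and the median difference over the 14 was 0.40 log2. Pde10a, from the same list, stood lower in CeHi (3567 to 5162) than in CeCo (5184 to 6147) and was not called. The part of these markers in the cerebellar Adora2a values was not tested.

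Other genes of the indirect pathway neurons had the same order of StHi samples in 4 of 5 cases. Relative to the StCo mean, StHi replicates 0, 1 and 2 stood at 1.05, 1.37 and 1.28 for Adora2a, at 0.966, 1.24 and 1.20 for the dopamine receptor Drd2, at 0.985, 1.29 and 1.25 for Penk (enkephalin), at 0.881, 1.38 and 1.32 for the orphan receptor Gpr6 and at 0.910, 1.30 and 1.21 for the transcription factor Sp9. The fifth, the kainate receptor subunit Grik3, stood at 0.826, 0.873 and 1.04. The summed level of these 5 markers was 48489 to 65846 in StCo and 55022 to 70952 in StHi, overlapping, and none was called between the lines. The order of StHi samples was not particular to these genes. In StHi replicates 0, 1 and 2 the 5 measured markers of direct pathway neurons summed to 13487, 16040 and 14980. The 14 striatal markers, some of them in these lists, summed to 325780, 421042 and 405015 in the same samples. The count of Adora2a per count of Drd2 was 2.27 to 2.68 in StCo and 2.73 to 2.84 in StHi. Per count of Penk it was 0.225 to 0.263 and 0.255 to 0.264, and per count of Gpr6 8.76 to 10.6 and 9.74 to 11.9, both with overlap. These ratios are not scaled for length, serve only to compare samples, and were chosen after the values were seen.

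**Figure D4:**
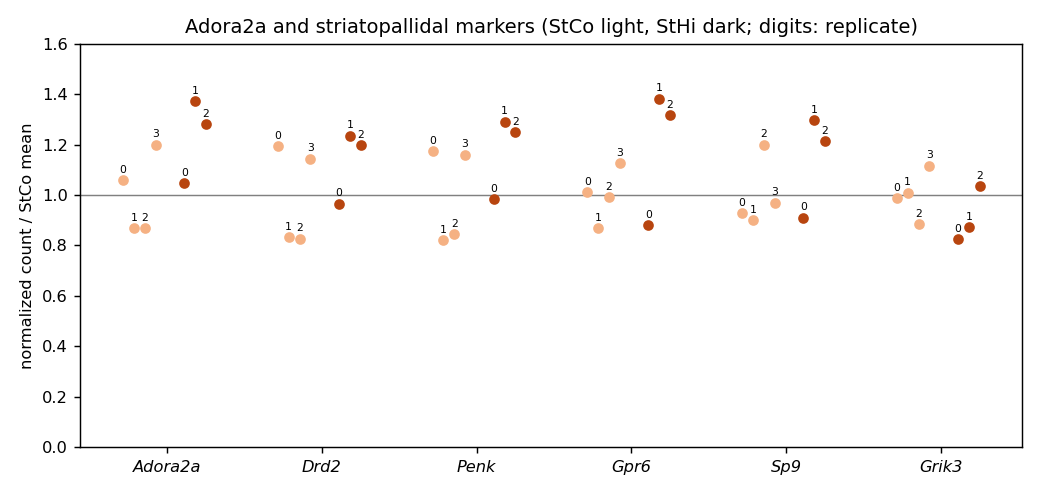
Normalized counts of Adora2a and 5 markers of indirect pathway neurons in the 7 striatal samples, each divided by the StCo mean of its gene (1 on the linear axis, grey line). StHi replicate 0 lay below replicates 1 and 2 for each gene, and for Adora2a the 3 stood at 1.05, 1.37 and 1.28.

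Over the 15 samples the genes most like Adora2a were Adcy5, Gng7 and Pde2a, each with r of 0.999. Adcy5 is the main adenylyl cyclase of striatal projection neurons, Gng7 a G protein gamma subunit and Pde2a a cyclic nucleotide phosphodiesterase. The 15 samples share the contrast between regions, which enters each r. By deviations from group means the most alike were the G protein subunit Gnb5 (0.95), Cldn12 (0.89) and Dlg4 (0.88).

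Adora1 (chr1:134199223-134235431, minus strand) was the most abundant member per length in the cerebellum and the next after Adora2a in the striatum. It had 13754, 13433, 12845 and 12855 normalized counts in CeCo, 13818, 12830, 11746 and 13887 in CeHi, 11757, 10732, 9046 and 11122 in StCo, and 11299, 9283 and 9759 in StHi. Within each line every cerebellar sample lay above every striatal sample, and the lines overlapped in either region. The striatum was lower by 0.31 log2 in the control line (SE 0.08, limma FDR-adjusted P-value 0.0020) and by 0.37 in the selected line (SE 0.09, adjusted P-value 0.0011). The line differences were -0.02 log2 (SE 0.08) in the cerebellum and -0.08 (SE 0.09) in the striatum, with 95% intervals of -0.19 to 0.14 and -0.26 to 0.10. The gene overlaps Mybph on the other strand, and strand was not stated to be used in the counting. Mybph itself had 0.841 to 8.23 normalized counts in a sample, and its part in the Adora1 counts was not tested. The genes most like it over the samples were Pip5k1c (0.95), Schip1 (0.95) and Nrn1 (0.94), and by deviations Ptplb (0.94), Snx5 (0.93) and 1700066M21Rik (0.92).

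As CPM per kilobase, the receptors ranked differently in the regions. In CeCo Adora1 had a mean of 58.0, Adora2b 2.61 and Adora2a 0.565, and in CeHi the means were 57.2, 1.62 and 0.628. In StCo Adora2a had 83.2, Adora1 43.0 and Adora2b 5.69, and in StHi 104, 41.1 and 2.58. With the fourth receptor, Adora3, Adora1 made up 94.7% of the summed level in CeCo and 96.1% in CeHi. Adora2a made up 62.8% in StCo and 69.9% in StHi. The mean share of Adora2b was 4.26% in CeCo against 2.71% in CeHi, and 4.35% in StCo against 1.75% in StHi, given as a description with no test. Adora3 stood at 0.081, 0.093, 0.305 and 0.285 in the 4 groups, and shares its position with Tmigd3 on the same strand, so that its count is uncertain.

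**Figure D5:**
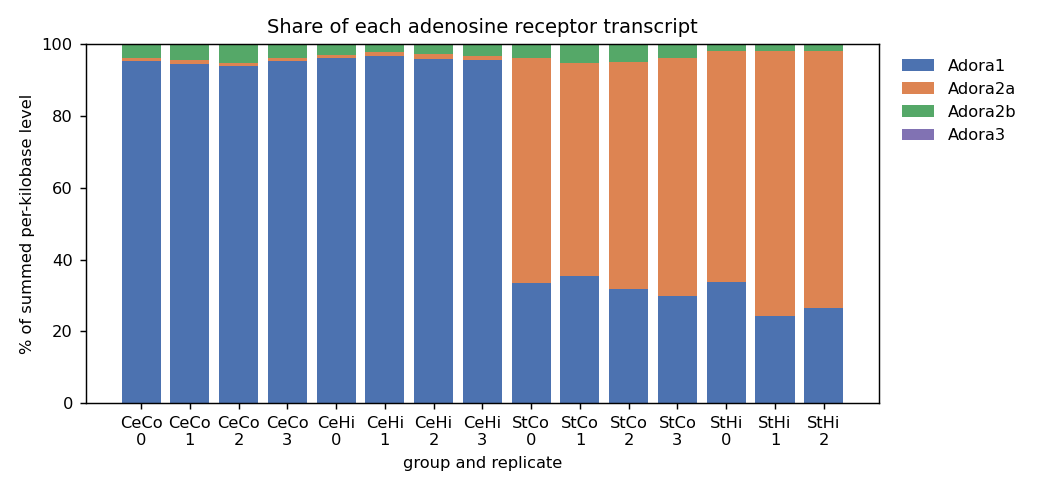
Share (%) of each of the 4 adenosine receptor transcripts in their summed per-kilobase level, in each of the 15 samples. Adora1 made up 93.7 to 96.6% in the cerebellar samples, while in the striatal samples Adora2a made up 59.3 to 73.9%.

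Nt5e (chr9:88327197-88372092, plus strand), which makes extracellular adenosine from AMP, was higher in the striatum. It had 367, 388, 422 and 390.1 normalized counts in CeCo and 427, 397, 415 and 369 in CeHi. In the striatum it had 1017, 827, 887 and 902 in StCo and 1034, 1135 and 1138 in StHi. The striatum exceeded the cerebellum by 1.21 log2 in the control line (SE 0.08) and by 1.46 in the selected line (SE 0.08), that is 2.32-fold and 2.75-fold. The 3 StHi samples lay above the 4 StCo samples, the lowest by a narrow margin (1034 against 1017). The line difference in the striatum was 0.28 log2 (SE 0.08, unadjusted limma P-value 0.0037, FDR-adjusted P-value 0.089), 1.21-fold with a 95% interval of 1.07 to 1.36, and did not pass the threshold. It passed with DESeq2 (adjusted P-value 0.027), with sample weights (0.025) and without StCo replicate 0 (0.042). Over all fits with limma, edgeR and DESeq2 the adjusted P-value ran from 0.025 to 0.270, and edgeR did not call the gene. DESeq2 and sample weights also called more of all genes in the striatum, 711 and 740 against 405. In the cerebellum the difference was 0.03 log2 (SE 0.08, adjusted P-value 0.865), and the difference between regions was not called (FDR-adjusted P-value 0.496). The oligodendrocyte sums given above also differed between StCo and StHi without overlap, and their part in the Nt5e values was not tested. The genes most like Nt5e were Pou3f3 (0.99), Dock10 (0.99) and Rhot2 (0.99), and by deviations Ctnna3 (0.87), Ddx59 (0.86) and Golim4 (0.85).

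Slc29a1 (chr17:45585200-45599606, minus strand), which carries adenosine across the cell membrane in either direction, had 807, 780.1, 728 and 867 normalized counts in CeCo, 689.5, 629.8, 891 and 779 in CeHi, 933, 874, 894 and 943 in StCo, and 991, 1082 and 915 in StHi. It was higher in the striatum of the selected line by 0.43 log2 (SE 0.10, limma FDR-adjusted P-value 0.0011) and in the control line by 0.20 (SE 0.09, adjusted P-value 0.057), which was not called. The lines overlapped in either region, with differences of -0.11 log2 (SE 0.09) in the cerebellum and 0.12 (SE 0.10) in the striatum. The difference between these, 0.23 log2 (SE 0.14), was not called either (adjusted P-value 0.677). An antisense transcript, Gm17080, overlaps the gene. The genes most like it were Ttc22 (0.94), Ccnd1 (0.89) and Gm9846 (0.89), and by deviations Rnf32 (0.88), AA387883 (0.87) and Lmf1 (0.86).

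Adk (chr14:21052574-21448569, plus strand), the main intracellular route by which brain adenosine is cleared, in adult brain chiefly an astrocyte enzyme, had 2709, 3149, 3190 and 2764 normalized counts in CeCo, 3261, 2737, 2823 and 2954 in CeHi, 2456, 2595, 2349 and 2287 in StCo, and 2676, 2455 and 2434 in StHi. It was lower in the striatum by 0.28 log2 in the control line (SE 0.07, limma FDR-adjusted P-value 0.0013) and by 0.22 in the selected line (SE 0.07, adjusted P-value 0.014). The latter was lost without CeHi replicate 0 (adjusted P-value 0.055), StHi replicate 1 (0.051) or StHi replicate 2 (0.059). Of the 10 astrocyte markers, 6 were lower and 2 higher in the striatum in either line. The line differences of Adk were -0.01 log2 (SE 0.07) and 0.05 (SE 0.07), with 95% intervals of -0.15 to 0.13 in the cerebellum and -0.10 to 0.21 in the striatum. The genes most like it were Dscr3 (0.94), Cdc42se1 (0.93) and Cwc25 (0.93), and by deviations Arnt2 (0.87) and Slc38a4 (0.85).

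Ada (chr2:163726584-163750239, minus strand) had low counts, with 9 to 28 fragments in a sample. It had 14.9, 8.92, 17.1 and 8.02 normalized counts in CeCo, 13.5, 12.7, 9.26 and 14.8 in CeHi, 19.7, 18.8, 29.4 and 22.9 in StCo, and 19.5, 21.4 and 14.2 in StHi. In the control line each striatal sample lay above each cerebellar sample (two-sided exact permutation P-value 0.029, the smallest that 4 against 4 can give; 0.114 adjusted over the 4 comparisons made of this gene). In the selected line the regions overlapped at 14.2 and 14.8 (exact P-value 0.114, 0.229 adjusted). With limma without the filter, at these low counts, the striatum was higher by 0.87 log2 in the control line (SE 0.27, FDR-adjusted P-value 0.0094). In the selected line that fit gave 0.50 log2 (SE 0.29, FDR-adjusted limma P-value 0.162). The lines overlapped in the cerebellum (exact P-value 0.886) and in the striatum (exact P-value 0.286, where the smallest possible was 0.057). As CPM per kilobase, Adk exceeded Ada 62.6-fold on average in CeCo and 56.5-fold in CeHi, against 25.97-fold in StCo and 33.1-fold in StHi.

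The order of the 7 members by level per length in StCo was Adora2a, Adora1, Adk (6.64), Adora2b (5.69), Slc29a1 (5.31), Nt5e (2.47) and Ada (0.266). Adora2b and Slc29a1 overlapped in that group. In StHi Adora2b (2.58) stood below Slc29a1 (5.86) and Nt5e (3.02). In CeCo the order was Adora1, Adk (8.80), Slc29a1 (5.04), Adora2b (2.61), Nt5e (1.16), Adora2a (0.565) and Ada (0.155), and in CeHi it was the same, with Adora2b (1.62) and Nt5e (1.18) closest together. Apart from Adora2b and Slc29a1 in StCo, no neighbours in these orders overlapped within a group.

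Counted together, 5 of the 6 tested members were called between regions in the control line, 3 higher (Adora2a, Adora2b, Nt5e) and 2 lower (Adora1, Adk) in the striatum, where 36.9% of all genes were called higher and 37.8% lower. In the selected line all 6 were called, 4 higher and 2 lower, where 35.1% of all genes were called higher and 35.4% lower. Adora2b exceeded its cerebellar level in the striatum by 1.26 log2 in the control line (SE 0.13) and by 0.79 in the selected line (SE 0.14).

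A wider list held 46 further genes of adenosine formation, transport, removal and reception, of which 45 were in the table and 36 were tested. Over all genes tested, limma called 5.94% between the lines in the cerebellum, 2.66% in the striatum and 0.532% in the interaction. At these shares few of 36 genes would be called. None of the 36 was called between the lines by limma in the cerebellum (2 with an unadjusted P-value under 0.05), the striatum (5) or the interaction (0). edgeR called none of them in either region, and DESeq2 called none in the cerebellum and 1, Ak3, a mitochondrial adenylate kinase, in the striatum. Their median line difference was 0.02 log2 in both regions.

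Between regions, 28 of these 36 were called in the control line, 14 higher and 14 lower in the striatum, and 27 in the selected line, 13 higher and 14 lower. Over all genes tested the shares called were 74.7% (36.9% higher, 37.8% lower) and 70.5% (35.1% higher, 35.4% lower), so that these counts lay near the background. The largest increase was in Gda, guanine deaminase, with a mean of 30.9 ± 2.75 (SD, n = 4) normalized counts in CeCo and 12543 ± 783 (n = 4) in StCo (8.63 log2, SE 0.50). In CeHi it ranged from 26.9 to 228, the highest again in replicate 3. Gda was called between regions by edgeR in both lines and was not among the genes DESeq2 called. Whether DESeq2 gave it a P-value was not recorded, so its absence there does not count against the difference. Next came the adenylate kinase Ak5 with 310.3 ± 24.5 and 5112 ± 450 (4.04 log2, SE 0.12), and the ectonucleotidase Entpd3 with 135 ± 21.7 and 871 ± 79.5 (2.69 log2, SE 0.15). The fourth was the fourth adenosine receptor, Adora3, with 11.9 ± 2.62 and 48.8 ± 9.98 (1.96 log2, SE 0.28). Among those lower in the striatum, the monoamine and nucleoside transporter Slc29a4 had 2338 ± 225 in CeCo and 469 ± 141 in StCo (-2.36 log2, SE 0.18). The mitochondrial adenylate kinase Ak4 had 7123 ± 913 and 1811 ± 141 (-1.96, SE 0.08), and the cytosolic 5'-nucleotidase Nt5c1a had 167 ± 9.36 and 69.4 ± 11.2 (-1.26, SE 0.13). Its relative Nt5c1b had 253 fragments over the 4 CeCo samples and 3 over the 4 StCo samples, a ratio of 78.9 with an exact 95% interval of 26.7 to 385 that covers counting error only.

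The 13 genes listed for receptor signalling were G protein subunits, adenylyl cyclases, Ppp1r1b and other receptors of these circuits. None was called between the lines in the cerebellum, the striatum or the interaction, where 5.94%, 2.66% and 0.532% of all genes were called. Between regions in the control line 6 were called higher and 5 lower in the striatum, where 36.9% of all genes were called higher and 37.8% lower. Gnal, Adcy5, Ppp1r1b and Drd2 are also among the striatal markers. The stimulatory G protein subunit Gnal had 7668 ± 176 (SD, n = 4) normalized counts in CeCo and 32578 ± 4695 (n = 4) in StCo (2.08 log2, SE 0.10). Adcy5 had 1888 ± 83.8 and 37333 ± 3794 (4.31 log2, SE 0.08), and the protein phosphatase inhibitor Ppp1r1b (DARPP-32) had 5178 ± 264 and 58086 ± 7568 (3.48 log2, SE 0.09). Drd2 had 26.2 ± 6.42 and 4268 ± 844 (7.31 log2, SE 0.39), and the glutamate receptor Grm5 had 397 ± 41.0 and 17413 ± 1642 (5.46 log2, SE 0.24). The adenylyl cyclase Adcy1, abundant in cerebellar granule cells, was lower in the striatum, with 119246 ± 4149 and 26062 ± 4483 (-2.21 log2, SE 0.13). Means were also lower in StCo than in CeCo for Gnai1 (8722 against 10815), Gnai3 (1752 against 2424), Adcy8 (664 against 1410) and Cnr1 (17265 against 27049).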

How the data were processed

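Per the labels and the methods of the study, 100-nt paired-end reads were aligned to GRCm38 with TopHat2 and summarised with Cuffnorm 2.2.1. One StHi sample was left out by the authors. The deposited table was labelled FPKM, but its values behaved as a signal of fragment counts divided by a depth factor: 99.6 to 99.82% of low values were whole multiples of 1 fragment within 0.1. One fragment was worth 0.841 to 1.30. Values were scaled by TMM (divisors 0.9926 to 1.008) and fitted with limma 3.58.1 (R 4.3.3; trended, robust) on log2(value + 1) as 4 group means, for genes with at least 1 CPM in 3 samples, with Benjamini-Hochberg adjustment. edgeR 4.0.16 and DESeq2 1.42.0 on recovered fragments were alternatives, and the fit was tested on simulated data. Positions were taken from GENCODE, with 24589 of 26628 symbols found. The members, lists and tests were chosen with earlier results of these data known. Named genes were all members, pathway genes called between lines, the 4 largest regional differences in each direction and the 3 most correlated genes per member, of which 1 is not reported here.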

Additional observations from a re-analysis of the deposited data

How the results depend on the processing

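Of 840 recomputed values of the 30 member log2 differences, 819 kept their direction and side of the threshold, 9 newly passed it, 3 no longer did and 9 changed sign. Adora2b kept its call in both regions under every alternative that gave a value for it, from -0.77 to -0.58 in the cerebellum and -1.21 to -1.11 in the striatum. The number of members called between lines in the striatum was 2, with Nt5e, under sample weights and DESeq2, and 1 to 2 when single samples were left out (2 without StCo replicate 0). The number of pathway genes called was 1 in the striatum under quantile normalization and DESeq2 (Ak3) and 0 to 1 with single samples left out (Ak3, without CeCo replicate 3 or StCo replicate 0). In the cerebellum it was 1 under sample weights (Alpl) and 1 with the replicate block (Ak3). The cause was not tested. Sign changes concerned small differences that were never called. For Adk in the cerebellum they gave 0.00056 without the filter, 0.019 with sample weights and up to 0.034 with samples left out (lowest -0.056); its interaction was -0.0052 with sample weights. Adora1 in the cerebellum ranged from -0.053 to 0.031 with samples left out (highest without CeHi replicate 2) and its interaction from -0.14 to 0.0034 (highest without StHi replicate 1). Slc29a1 between regions in the control line was called under median of ratios, the filter of 5 CPM, DESeq2 and without CeCo replicate 3, CeHi replicate 1 or CeHi replicate 2. Over all genes, DESeq2 called 1390 in the cerebellum against 903, 711 in the striatum against 405 and 277 in the interaction against 81, and sample weights called 740 in the striatum and 182 in the interaction. Without single samples the counts fell to 269 in the striatum (without StCo replicate 1, or StHi replicate 2) and to 46 in the interaction (without StHi replicate 1). Same-numbered Ce and St samples had correlations of deviations of 0.171 to 0.278 in Co (4 pairs) and -0.075 to 0.051 in Hi (3 pairs). Differently numbered samples had -0.163 to 0.0152 in Co (12 pairs) and -0.08 to 0.0731 in Hi (9 pairs). In Co all same-numbered pairs thus lay above all others, and in Hi they did not. The numbers were not used as a block in the report, and Ce and St samples were treated as separate mice, also in the exact permutation of Ada. The replicate block gave samples of the same number a shared term across both regions and both lines, so it could not show what pairing by mouse would give. With it Adora2b differed by -0.68 and -1.14 and no call of a member changed. Precision is limited by 3 to 4 mice a group and, for Ada, by 9 to 28 fragments.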
